A study of Homo sapiens with 9 samples.

Results

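MGAT4B and 9 other genes of N-glycan branching and processing (MGAT4A, MGAT1, MGAT2, MGAT3, MGAT5, MAN1A1, MAN2A1, MAN2A2 and FUT8) were followed in cells that received a mimic of miR-1229-3p. The genes were chosen by name: MGAT4B carries the microRNA in one of its introns, and the others encode enzymes that build the same kind of glycan. All 10 were found among the 14943 genes of the count table, and since the table holds no gene below the authors' filter on low counts, all 10 had passed that filter.

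SH-Sy5y, a human neuroblastoma cell line, was transfected for 48 h, and polyadenylated RNA was sequenced from 3 groups of 3 libraries each. Control cells (Ctrl.) received 40 pmol of a negative control oligonucleotide, 10 nM cells 20 pmol of the mimic with 20 pmol of that oligonucleotide, and 20 nM cells 40 pmol of the mimic with 0 pmol of it, so that 20 nM against Ctrl. compares mimic with control oligonucleotide and not with untreated cells. No other treatment or genotype separated the groups, all of which are the same line. The labels do not say whether replicates are separate cultures, and the p-values measure only the spread between these libraries. In bulk RNA, fewer cells of a kind and less RNA per cell cannot be told apart.

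N-glycans are sugar trees on asparagines of secreted and membrane proteins. A preassembled glycan is put on in the endoplasmic reticulum (ER), trimmed there, and trimmed further by mannosidases of the Golgi. It is then rebuilt by N-acetylglucosaminyltransferases. Each of these apart from MGAT3 starts one branch (antenna) that other enzymes extend with galactose and sialic acid. The number of branches is known to affect how long receptors and transporters stay at the cell surface, and in brain and neuroblastoma cells branched and bisected N-glycans are carried by adhesion molecules and channels.

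The link between the gene and the microRNA is a single short intron. In the human genome (GRCh38, GENCODE annotation), MGAT4B occupies chr5:179797597-179806952, minus strand. Its reference transcript has 15 exons, and intron 13 of its 14 introns, chr5:179798278-179798346 on the minus strand, is 69 bases long, the shortest of all 14 (the longest has 4517). The hairpin of the microRNA spans exactly that intron, end to end. It is shown here as RNA from RefSeq, first with the bases of the intron's ends (GU and AG, the splice signals) in capitals, then with the mature microRNA in capitals, to show that the mature strand, starting at base 47, runs through to the splice acceptor.
hairpin, intron ends: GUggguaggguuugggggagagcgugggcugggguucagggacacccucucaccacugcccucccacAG
hairpin, mature strand: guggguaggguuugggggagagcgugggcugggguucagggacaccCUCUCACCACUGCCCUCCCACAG
The mature microRNA has 23 bases. In the line that follows its seed, the bases that pair with target messenger RNAs (mRNAs), is in capitals.
miR-1229-3p: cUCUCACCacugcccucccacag

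Matches to this seed were looked for in the 3′ untranslated region (UTR) of each branching gene, on the sense strand: the 6-mer GTGAGA, its extensions to the 7-mers GTGAGAA and GGTGAGA, and the 8-mer GGTGAGAA that contains all of these. MGAT4B, with a 3′ UTR of 435 bases, held none of them, so the host mRNA carries no seed match to the microRNA it hosts in that window. Its close relative MGAT4A, with a 3′ UTR of 6460 bases, held the 8-mer, as did 4.36% of the 13820 genes with a 3′ UTR of at least 50 bases. MAN2A1, MAN2A2 and FUT8 held a 7-mer as their longest match, so 4 of the 10 genes held a 7-mer or the 8-mer, against 21.0% of those 13820 genes. A longer 3′ UTR has more room for a match, and this share was not matched for length. MGAT1 and MGAT5 held only a 6-mer, and MGAT2, MGAT3 and MAN1A1 held no match. The 4 longest matches are printed as DNA with 11 bases on each side and the match in capitals, as the members with the longest matches.
MGAT4A, 8-mer, chr2:98622134-98622141, minus strand: tgaatattttgGGTGAGAAgagaaagctga
MAN2A1, 7-mer, chr5:109867096-109867102, plus strand: ttctggctactGTGAGAAcatgaattctg
MAN2A2, 7-mer, chr15:90921368-90921374, plus strand: agagtgaatgtGTGAGAAcactaagacca
FUT8, 7-mer, chr14:65743664-65743670, plus strand: ttggtgaccaaGTGAGAAgcgggaccaat

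The libraries held between 17.4 and 28.2 M estimated counts, and each branching gene had between 151 and 6916 counts in every library. Levels are given as CPM, counts scaled to a common library total with TMM, and fold changes come from a model that also holds a surrogate variable (an estimate of unexplained variation between libraries). Of the neuroblastoma markers, PHOX2A, HAND2, GATA2, GATA3, ISL1, DBH and CHGA stood at 227 CPM or more in Ctrl., while TH (tyrosine hydroxylase) was at 0.598 CPM. Of the markers of other cell types, EPCAM, MBP and COL1A2 were at 0.43 to 1.85 CPM in Ctrl. and PTPRC, PECAM1, CDH5, ALB, GFAP and DES were not among the genes kept. Among the neuroblastoma markers given, ISL1 and TH were lower at 20 nM in the test used for all genes. One library, 20 nM replicate 3, stood apart: it lay at 47.4 on the first principal component, and the other 8 between -17.1 and 7.72. Its values are therefore given separately wherever it decides a result.

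Per kilobase of transcript, MGAT4B was the most abundant of the 10 mRNAs in each group. In Ctrl. it stood at 65.2 ± 2.38 CPM per kb (SD, n = 3), above 92.8% of all genes. MGAT5, which starts the β1,6 branch, followed with 29.5 CPM per kb, then MAN2A2 with 19.4, MGAT2 with 15.7, MAN1A1 with 15.6, MGAT1 with 8.72, FUT8 with 5.89, MGAT3 with 4.20 and MAN2A1 with 2.88. MGAT4A closed the order at 1.07 ± 0.136 CPM per kb, above 16.5% of all genes. The ranges of neighbouring genes in this order did not overlap in Ctrl., except for MGAT2 (lowest library 15.2) and MAN1A1 (highest library 16.1). At 10 nM the ranges of MAN2A2 and MGAT2 and of MGAT2 and MAN1A1 overlapped, and at 20 nM only those of MAN2A2 and MGAT2 did. The order of the 10 means was the same in the 3 groups.

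**Figure D1:**
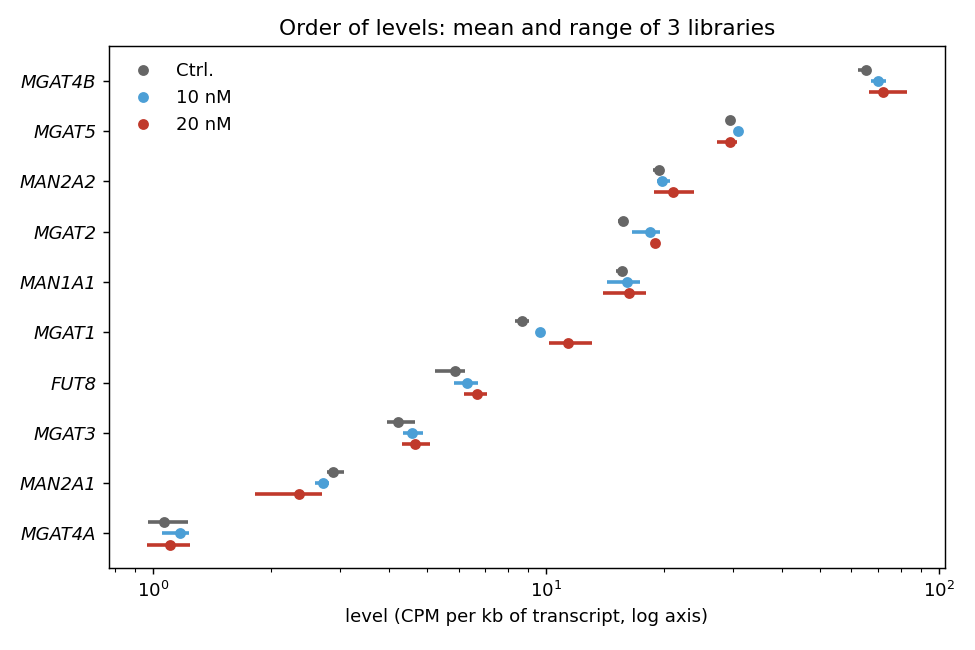
Level of each branching gene in CPM per kb of its reference transcript (log axis) in Ctrl. (grey), 10 nM (blue) and 20 nM (red); points are means and lines the range of 3 libraries. MGAT4B is at 65.2 in Ctrl. and MGAT4A at 1.07, at opposite ends of the order.

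MGAT4A and MGAT4B encode enzymes that start the same β1,4 branch on the α1,3 arm. In these cells nearly all of their summed mRNA came from MGAT4B: per kilobase, it exceeded MGAT4A 61.7 ± 9.39-fold in Ctrl., 60.2 ± 6.02-fold at 10 nM and 66.7 ± 16.9-fold at 20 nM (SD, n = 3). The lowest single library gave a ratio of 50.9 (Ctrl. replicate 1) and the highest 86 (20 nM replicate 3), and the groups overlapped. The third gene of the family, MGAT4C, was close to the floor of the table, with 0.43 to 1.31 CPM over the 9 libraries.

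The host gene itself was next followed across the doses. MGAT4B stood at 148, 157 and 158 CPM in the 3 Ctrl. libraries, at 159, 166 and 174 CPM at 10 nM, and at 157, 159 and 197 CPM at 20 nM. Each 10 nM library lay above all of Ctrl., while at 20 nM replicates 1 and 2 lay at the upper end of the Ctrl. range and only replicate 3 lay well above it. The log2 fold change of MGAT4B was 0.07 at 10 nM (95% interval -0.01 to 0.16) and 0.01 at 20 nM (-0.09 to 0.11), with adjusted p of 0.446 and 0.92 (edgeR quasi-likelihood test, Benjamini-Hochberg over all 14943 genes, as for every adjusted p here). Within this model, the intervals leave room for a fold of 0.99 to 1.12 at 10 nM and of 0.941 to 1.08 at 20 nM. Without a surrogate variable the 20 nM value of MGAT4B was 0.15 (adjusted p = 0.313), with a block for the replicate number in its place 0.14 (adjusted p = 0.174), and without 20 nM replicate 3 it was 0.03 (adjusted p = 0.651). None of these passed the threshold of 0.05. The values without a surrogate variable and with the block lay above the 20 nM interval of -0.09 to 0.11. That interval therefore does not bound the change of MGAT4B across models.

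MGAT4B shares its locus with other genes. SQSTM1, the autophagy receptor p62, starts head to head with it on the plus strand, and their annotated spans overlap by 555 bases. Whether the counting used strand is not stated, so reads from the overlap cannot be assigned to either gene with certainty. SQSTM1 held 133, 147 and 186 CPM in Ctrl., 143, 155 and 186 at 10 nM, and 137, 158 and 184 at 20 nM, with the replicates in the same order in each group and full overlap between groups. At 20 nM the log2 fold change of SQSTM1 was -0.15 (95% interval -0.39 to 0.10, adjusted p = 0.442). Its sign depended on the model: it was 0.039 with 0 surrogate variables (adjusted p = 0.889) and 0.043 with a block for the replicate number (adjusted p = 0.616). LTC4S, leukotriene C4 synthase, ends 949 bases away and was barely detected, at 0.28 to 1.14 CPM.

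The genes whose levels followed MGAT4B most closely over the 9 libraries were TUSC2 (Pearson r = 0.993 on log2 CPM), CYB561D2 (0.988), GNB2 (0.981), ATP13A2 (0.981) and ENTPD6 (0.98), among 13682 genes with a mean of at least 1 CPM. These r describe 9 libraries of 3 groups and share the high value in 20 nM replicate 3: TUSC2, for example, ran from 37.7 to 50.9 CPM in the other 8 libraries and reached 63.0 CPM there. Over those 8 libraries the 5 closest genes were TUSC2 (0.974), LAMTOR1 (0.969), VAPA (0.958), CYB561D2 (0.956) and PYCR1 (0.954), so 2 of the 5 were shared. No branching gene was among either set. MGAT3 had the highest r of them over 9 libraries (0.815), MAN2A1 the lowest (-0.935), and the paralogue MGAT4A was at -0.388. Over the 8 libraries MGAT3 (0.733) and MAN2A1 (-0.757) kept these places, but MGAT4A was at 0.05. MGAT5 went from -0.521 over 9 libraries to 0.53 over 8, and MGAT1 from 0.765 to 0.264. The values of these genes thus depended on 20 nM replicate 3.

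**Figure D2:**
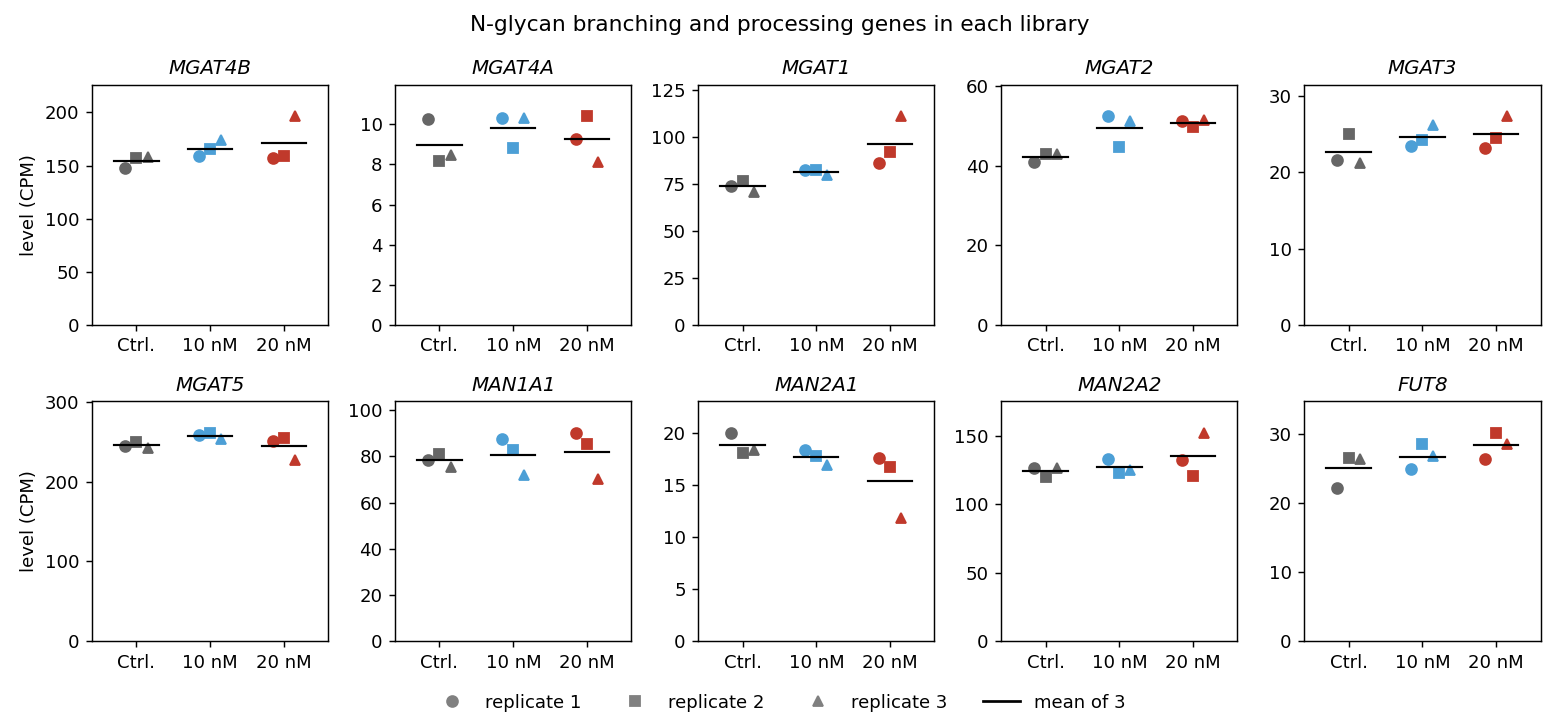
Level in CPM (linear axis from 0) of the 10 branching genes in each library of Ctrl., 10 nM and 20 nM; symbols mark the replicate number and bars the mean of 3 libraries. MGAT1 and MGAT2 are above Ctrl. in all mimic libraries, and 20 nM replicate 3 (triangle) is the highest library for MGAT4B and the lowest for MAN2A1.

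Which branching genes changed with the mimic was then tested at each dose. At 10 nM, 0 of the 10 genes were differentially expressed (DEGs, adjusted p under 0.05), where 0.649% of all genes were. DESeq2 also called 0, and 3 of them (MGAT1, MGAT2 and MGAT5) had an unadjusted p under 0.05, as did 13.9% of all genes. At 20 nM, 3 of the 10 were DEGs and all 3 rose: MGAT1, MGAT2 and MAN1A1. Of all genes, 13.9% were DEGs at 20 nM and 7.8% were higher. In the dose trend, which takes the concentration as a number, 2 of the 10 were DEGs, MGAT1 and MGAT2, both higher, against 17.5% of all genes in either direction and 9.84% higher. Between 20 nM and 10 nM, 0 of the 10 were DEGs by edgeR and 0 by DESeq2, against 2.79% of all genes, and only MGAT1 passed before adjustment. For the 10 genes the median log2 fold change was 0.09 at 10 nM and 0.10 at 20 nM, with 9 of 10 above 0 in each. The median of all genes was 0, with 50.2% above 0 at 10 nM and 50% at 20 nM. The comparisons with Ctrl. share their control libraries.

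MGAT1 makes the first addition in the Golgi, the step without which no complex or hybrid N-glycan forms. Its levels were 73.7, 76.7 and 70.5 CPM in Ctrl., 82.6, 82.3 and 79.6 at 10 nM, and 86.0, 92.0 and 111 at 20 nM. These 3 groups did not overlap, in the order Ctrl., 10 nM, 20 nM. At 20 nM its log2 fold change was 0.26 ± 0.058 (SE, adjusted p = 0.0101), a fold of 1.199 with a 95% interval of 1.10 to 1.31, and in the dose trend it was 0.31 ± 0.055 per 20 nM (adjusted p = 0.00191). At 10 nM it was 0.12 ± 0.051 (adjusted p = 0.331). The value at 20 nM was 0.27 without replicate 3 of that group (adjusted p = 0.00288) and 0.25 without replicate 2, where it lost the threshold (adjusted p = 0.0665). Its size depended on the model: it was 0.39 with 0 surrogate variables (adjusted p = 0.0263) and 0.38 with the replicate block (adjusted p = 0.025). The dose trend of MGAT1 passed in each of 16 alternative analyses.

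MGAT2 starts the second antenna, on the α1,6 arm, after MGAT1 and the α-mannosidases II have acted. It was at 40.9, 42.9 and 42.9 CPM in Ctrl., 52.4, 44.5 and 51.1 at 10 nM, and 51.3, 49.7 and 51.3 at 20 nM. Both mimic groups lay above Ctrl. and overlapped with each other, with 10 nM replicate 2 the lowest of the 6 mimic libraries. The log2 fold change was 0.23 ± 0.063 at 10 nM (adjusted p = 0.135) and 0.26 ± 0.071 at 20 nM (adjusted p = 0.0272). 20 nM against 10 nM gave 0.04, with a 95% interval of -0.11 to 0.18. The 20 nM call was the less stable of the 2 enzymes: it was lost in 5 of 16 alternatives, namely with 0 surrogate variables (adjusted p = 0.0545) and without Ctrl. replicate 1, Ctrl. replicate 3, 20 nM replicate 1 or 20 nM replicate 2 (adjusted p up to 0.117).

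Both genes lay above Ctrl. in each of the 6 mimic libraries. Counted over the list, the 10 nM range lay apart from that of Ctrl. for 4 of the 10 genes (MGAT4B, MGAT1, MGAT2 and MGAT5, all above), where it did for 20% of all genes. At 20 nM it did for 3 of the 10 (MGAT1 and MGAT2 above, MAN2A1 below), where it did for 28.9% of all genes.

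MAN1A1, a Golgi α-mannosidase I that trims mannoses before MGAT1 can act, was at 78.2, 80.9 and 75.6 CPM in Ctrl., 87.4, 82.9 and 72.1 at 10 nM, and 90.2, 85.2 and 70.2 at 20 nM. Its groups overlapped, and replicate 3 was the lowest library of each group. Its log2 fold change at 20 nM was 0.20 ± 0.060 (adjusted p = 0.0399) in the model with the surrogate variable, and the call rested on that term. With a block for the replicate number instead, the value was 0.06 (adjusted p = 0.59), and with 0 surrogate variables 0.07 (adjusted p = 0.711). Without 20 nM replicate 3 it was 0.17 (adjusted p = 0.0314). In all, the 20 nM call of MAN1A1 was lost in 9 of 16 alternatives, and the dose trend (0.15, adjusted p = 0.0673) passed in 3 of 16.

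MAN2A1 and MAN2A2 encode the α-mannosidases II, which remove further mannoses between the steps of MGAT1 and MGAT2. MAN2A1 was at 20.1, 18.2 and 18.4 CPM in Ctrl., 18.4, 17.8 and 16.97 at 10 nM, and 17.6, 16.8 and 11.9 at 20 nM. All 20 nM libraries were below Ctrl., replicate 3 by most. Its log2 fold change at 20 nM was -0.10 (95% interval -0.27 to 0.07, adjusted p = 0.467), and in the dose trend -0.18 (adjusted p = 0.126). The size of the MAN2A1 value depended on the model: at 20 nM it was -0.30 with the replicate block (adjusted p = 0.0897), -0.29 with 0 surrogate variables (adjusted p = 0.193) and -0.14 without 20 nM replicate 3 (adjusted p = 0.257). Its dose trend passed the threshold, as lower, in 1 of 16 alternatives, without 20 nM replicate 1 (-0.34, adjusted p = 0.0172). MAN2A2, the more abundant of the pair, was at 126, 120 and 127 CPM in Ctrl., 133, 123 and 125 at 10 nM, and 132, 121 and 152 at 20 nM, with overlap throughout (0.03 at 20 nM, adjusted p = 0.83). Per kilobase, MAN2A2 exceeded MAN2A1 6.75 ± 0.305-fold in Ctrl., 7.33 ± 0.253-fold at 10 nM and 9.39 ± 3.2-fold at 20 nM, where replicates 1 and 2 gave 7.7 and 7.38 and replicate 3 gave 13.1.

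Of the enzymes that add the later branches, none was a DEG in any comparison. MGAT5 was at 244, 250.1 and 242 CPM in Ctrl., 258, 261 and 253 at 10 nM, and 252, 255 and 228 at 20 nM. Its 10 nM libraries lay above Ctrl. and 20 nM replicate 3 below it, with a log2 fold change of 0.09 at 10 nM (adjusted p = 0.339) and 0.05 at 20 nM (95% interval -0.04 to 0.15). MGAT4A, the member with the 8-mer match, was at 10.3, 8.16 and 8.49 CPM in Ctrl., 10.3, 8.84 and 10.3 at 10 nM, and 9.29, 10.4 and 8.10 at 20 nM. Its groups overlapped fully. Its log2 fold change at 20 nM was 0.14, and the 95% interval of -0.15 to 0.43 leaves room for a fold between 0.904 and 1.35.

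MGAT3 adds the bisecting N-acetylglucosamine, which blocks further branching by the other transferases. It was at 21.7, 25.1 and 21.3 CPM in Ctrl., 23.4, 24.2 and 26.3 at 10 nM, and 23.2, 24.5 and 27.4 at 20 nM, with overlap between all groups (0.05 at 20 nM, adjusted p = 0.742). MGAT5 exceeded MGAT3 per kilobase 7.04 ± 0.506-fold in Ctrl., 6.79 ± 0.484-fold at 10 nM and 6.38 ± 0.882-fold at 20 nM (SD, n = 3), and these ranges overlapped. FUT8, which puts the core fucose on the innermost sugar, was at 22.2, 26.5 and 26.3 CPM in Ctrl., 24.8, 28.5 and 26.8 at 10 nM, and 26.4, 30.2 and 28.5 at 20 nM. Its groups overlapped too, with a log2 fold change of 0.15 at 20 nM (95% interval -0.06 to 0.36, adjusted p = 0.338).

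None of the 4 members that hold a 7-mer or the 8-mer was a DEG at any dose in the model with the surrogate variable. At 20 nM their log2 fold changes were 0.14 for MGAT4A, -0.10 for MAN2A1, 0.03 for MAN2A2 and 0.15 for FUT8. With the replicate block they were 0.04, -0.30, 0.12 and 0.18 in the same order, with adjusted p of 0.846, 0.0897, 0.277 and 0.0924. Of the 3 genes that rose at 20 nM, MGAT2 and MAN1A1 held no match and MGAT1 held a 6-mer.

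**Figure D3:**
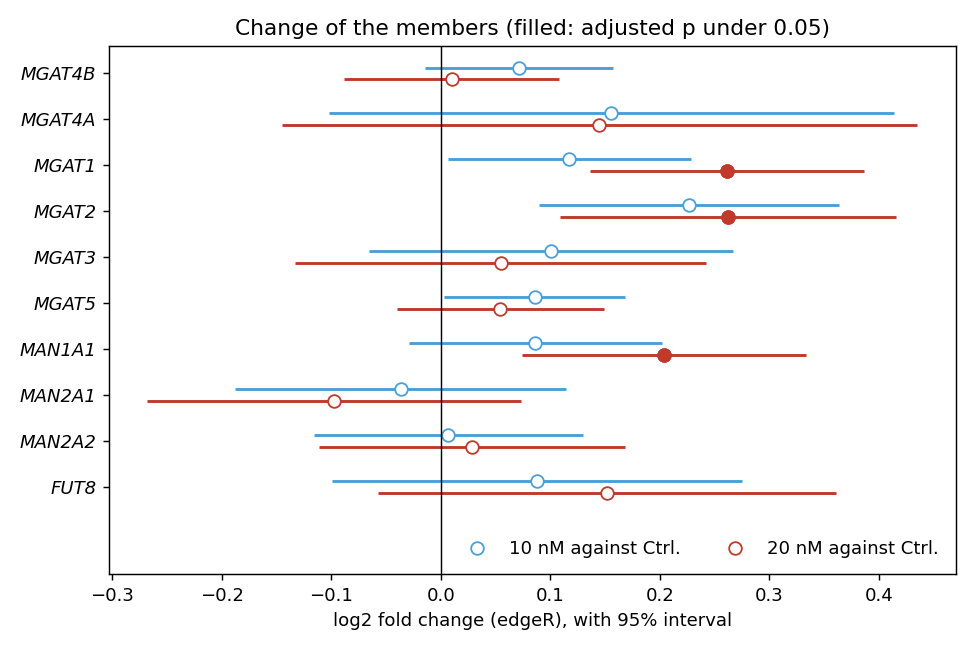
log2 fold change of the 10 branching genes at 10 nM (blue) and 20 nM (red) against Ctrl., with 95% intervals from the edgeR fit; filled points have an adjusted p under 0.05. MGAT1, MGAT2 and MAN1A1 are filled at 20 nM (0.26, 0.26 and 0.20), and the interval of MGAT4B at 20 nM spans -0.09 to 0.11.

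The difference of 20 nM replicate 3 from the rest of its group followed base composition. The deviation of 20 nM replicate 3 from the mean of its group's other libraries was set against transcript GC content over 13631 genes. Their Spearman correlation was 0.642, a description over genes of a single library. In 20 nM replicates 1 and 2 it was -0.591 and -0.439, and in the 6 libraries of Ctrl. and 10 nM between -0.147 and 0.258. Replicates 1 and 2 were each set against a mean that includes replicate 3, so their values do not stand apart from its value. Among the 10 branching genes the difference between replicate 3 and the mean of the other two was ordered likewise (Spearman 0.867). MGAT4B (62.6% GC) was 0.31 higher in replicate 3 on the log2 scale, MGAT1 (54.9%) 0.32 higher and MAN2A2 (53.9%) 0.27 higher. MAN2A1 (40%) was lower by that scale at -0.51, MAN1A1 (42.7%) at -0.32 and MGAT4A (39%) at -0.26. MGAT2 (47.5%), close to the median of 48.7% over all genes, differed by 0.02. The 5 genes most like MGAT4B over 9 libraries had a GC content of 56% to 64.4%. With transcript length, the Spearman correlation of the deviation over all 13631 genes was -0.25 in 20 nM replicate 3. In 20 nM replicates 1 and 2 it was 0.281 and 0.099, and in the 6 libraries of Ctrl. and 10 nM between -0.15 and 0.177. The part of base composition or transcript length in the 20 nM values of these genes was not tested.

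**Figure D4:**
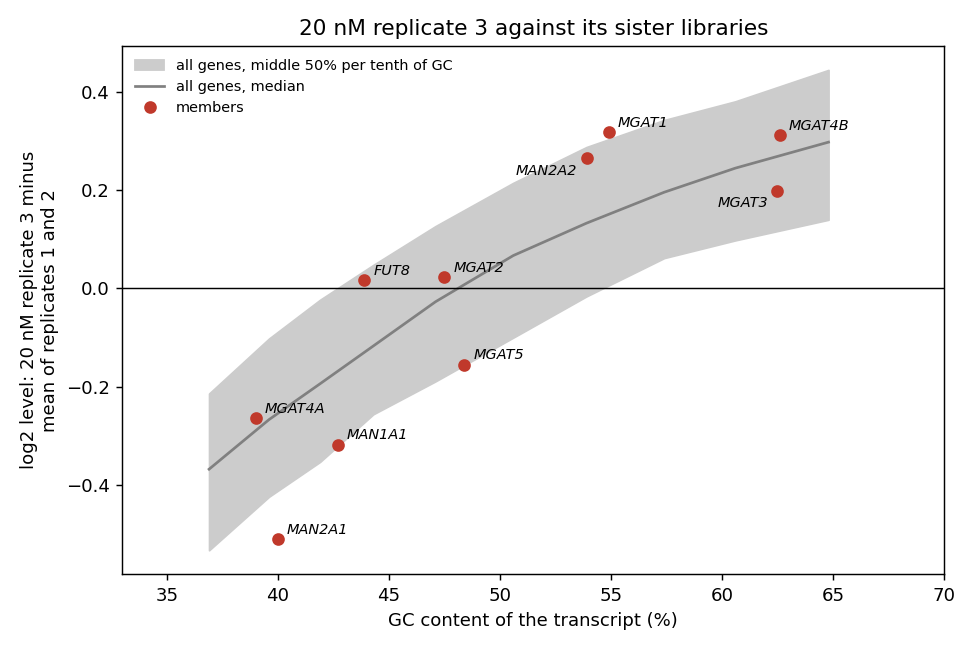
Difference in log2 level between 20 nM replicate 3 and the mean of 20 nM replicates 1 and 2 (vertical axis) by GC content of the transcript in % (horizontal axis); red points are the 10 branching genes, the grey line and band the median and middle 50% of all genes in 10 classes of equal size by GC content. MGAT4B lies at 62.6% and 0.31, MAN2A1 at 40% and -0.51, and the line rises from -0.37 in the class with the lowest GC content to 0.30 in that with the highest.

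The branching genes form one stage of a longer pathway, and 85 other N-glycosylation genes, of which 84 were in the table, were read alongside them. At 10 nM, 0 of the 84 were DEGs by edgeR (7, or 8.33%, had an unadjusted p under 0.05, against 13.9% of all genes), and DESeq2 called 1, CANX. At 20 nM 13 were DEGs and all 13 rose, which is 15.5% of the 84. Of all genes, 13.9% were DEGs in either direction and 7.8% rose, shares that also stand beside the counts per step below. The median log2 fold change of the 84 was 0.06 with 61 of 84 above 0. In the dose trend 14 rose and 2 fell (19% against 17.5%), where 9.84% of all genes rose and 7.69% fell. Between 20 nM and 10 nM 4 rose, where 1.91% of all genes did: ALG2, CANX, B4GALT6 and PMM2. With the replicate block only PMM2 of these 4 remained.

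Before the glycan is transferred it is assembled on a lipid in the ER, and 1 of 24 genes of that assembly rose at 20 nM. It was ALG2, a mannosyltransferase, which went from 16.2, 19.0 and 16.9 CPM in Ctrl. to 23.7, 23.6 and 20.5 CPM at 20 nM, all above Ctrl. The log2 fold change was 0.46 ± 0.091 (adjusted p = 0.00521). In the dose trend ALG3, another mannosyltransferase, also rose (0.21, adjusted p = 0.0146), and it passed at 20 nM with the replicate block (0.24, adjusted p = 0.0382). ALG10B, a glucosyltransferase with a near copy in ALG10, fell in the dose trend by 0.29 on the log2 scale (adjusted p = 0.0257), and not with the replicate block (adjusted p = 0.0731).

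The oligosaccharyltransferase moves the assembled glycan onto the protein. 2 of its 12 genes rose at 20 nM, MAGT1 (0.35 ± 0.062, adjusted p = 0.00269) and RPN2 (0.16 ± 0.047, adjusted p = 0.0367). MAGT1 was at 36.9, 37.8 and 39.5 CPM in Ctrl. and 49.6, 47.1 and 43.2 at 20 nM, without overlap. RPN2 was at 303, 305 and 307 CPM in Ctrl., and at 349.9, 330.2 and 303 CPM at 20 nM, where replicate 3 lay level with Ctrl. The RPN2 call was lost in 7 of 16 alternatives, with the replicate block among them (0.10, adjusted p = 0.29, and 0.272 in the dose trend). That of MAGT1 held in all 16.

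Among all genes at 20 nM, 13.9% were DEGs and 7.8% were higher. ER trimming and quality control had the largest share of DEGs among the lists of at least 10 genes, 4 of 11 at 20 nM (36.4%), each higher. They were the lectin chaperone CANX, the glucosidases MOGS and GANAB, which remove the outer glucoses, and EDEM3, which trims mannoses of misfolded proteins. CANX held 390.4, 406 and 429 CPM in Ctrl. and 529, 523 and 508 CPM at 20 nM. The 10 nM libraries, with 442, 453 and 457 CPM, lay between those groups without overlap. At 20 nM this was a log2 fold change of 0.36 ± 0.049 (adjusted p = 0.000521). MOGS changed by 0.22 ± 0.063 (adjusted p = 0.0356), GANAB by 0.20 ± 0.048 (adjusted p = 0.017) and EDEM3 by 0.15 ± 0.046 (adjusted p = 0.044). Of these 4 calls, that of CANX held in all 16 alternatives, while those of MOGS and GANAB were each lost in 4, without 20 nM replicate 2 or Ctrl. replicate 3 among them. The EDEM3 call was lost in 11 of 16 (with the replicate block 0.08, adjusted p = 0.423).

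Of the 3 other Golgi mannosidases, MAN1A2, which like MAN1A1 is an α-mannosidase I, rose at 20 nM by 0.34 ± 0.056 (adjusted p = 0.00158). It was at 59.8, 54.5 and 60.1 CPM in Ctrl. and at 75.4, 69.8 and 55.6 CPM at 20 nM, where replicate 3 lay inside the Ctrl. range. With the replicate block the value was 0.19 (adjusted p = 0.18) and the dose trend was lost too (adjusted p = 0.142), and without replicate 3 it was 0.32 (adjusted p = 0.00307). Neither of the 2 other branching enzymes in the table was a DEG. MGAT4C, the one with the smaller p, had a log2 fold change of -0.56 at 20 nM with a 95% interval of -1.37 to 0.26.

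Antennae are extended and capped by galactosyl-, N-acetylglucosaminyl- and sialyltransferases, and 3 of 12 such genes rose at 20 nM. B4GALT6, a galactosyltransferase known mainly for glycolipids, changed by 0.60 ± 0.109 (adjusted p = 0.00336), from 30.4, 29.4 and 34.9 CPM in Ctrl. to 52.6, 40.6 and 30.6 CPM at 20 nM, with replicate 3 back in the Ctrl. range. B3GNT2, which builds poly-N-acetyllactosamine, changed by 0.34 ± 0.086 (adjusted p = 0.0191) and B4GALT4 by 0.33 ± 0.096 (adjusted p = 0.0413). With the replicate block all 3 calls were lost: B4GALT6 was at 0.37 (adjusted p = 0.144), B3GNT2 at 0.27 (adjusted p = 0.0745) and B4GALT4 at 0.24 (adjusted p = 0.0682). The dose trends of B4GALT6 and B3GNT2 were lost with it as well (adjusted p = 0.121 and 0.0519). The median of the 12 at 20 nM was -0.03, with 7 of the 12 below 0.

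Sugar nucleotides feed all of these steps. 2 of 20 genes of their supply rose at 20 nM. PMM2, which makes mannose-1-phosphate, had the smallest p of all 84: it held 49.8, 51.9 and 50.2 CPM in Ctrl. and 76.8, 74.4 and 92.8 CPM at 20 nM. The 10 nM libraries (56.8, 54.7 and 60.8 CPM) lay between, with no overlap. Its log2 fold change at 20 nM was 0.56 ± 0.055 (adjusted p = 4.52e-05), and its 3′ UTR held no seed match. CMAS, which activates sialic acid, changed by 0.30 ± 0.068 (adjusted p = 0.0113), and with the replicate block by 0.24 (adjusted p = 0.0689). In the dose trend SLC35A3, the carrier of UDP-N-acetylglucosamine into the Golgi, rose by 0.31 (adjusted p = 0.0442), while its adjusted p was 0.464 with the replicate block and its value -0.07463 without 20 nM replicate 1. GFPT1, the first enzyme of hexosamine synthesis, fell in the dose trend by 0.18 on the log2 scale (adjusted p = 0.0409), a call lost in 5 of 16 alternatives, and it was not a DEG at 20 nM (adjusted p = 0.0572). Its 3′ UTR of 6409 bases held a 7-mer, as did that of SLC35A3, which rose in the dose trend. B4GALT4, which rose at 20 nM, held the 8-mer in its 3′ UTR of 807 bases.

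**Figure D5:**
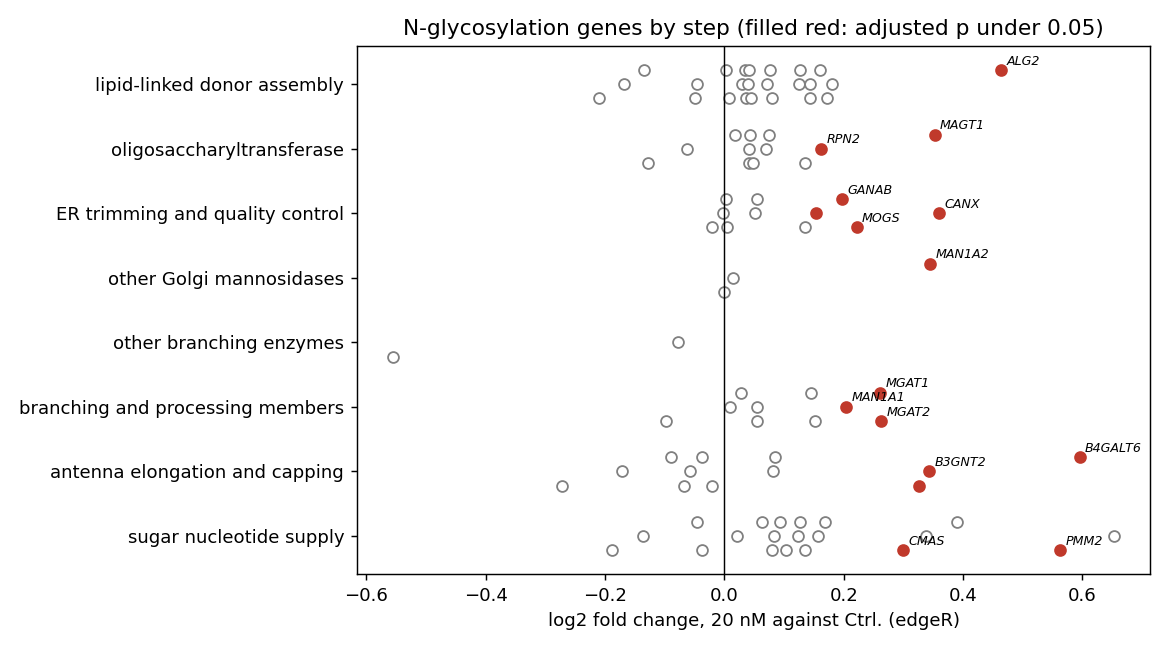
log2 fold change at 20 nM against Ctrl. (horizontal axis) of the 10 branching genes and 84 other N-glycosylation genes, 1 point per gene, in rows by pathway step; filled red points have an adjusted p under 0.05. All 16 filled points lie to the right of 0, and PMM2 is at 0.56.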

How the data were processed

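Polyadenylated RNA of 9 libraries (3 groups of 3) was analysed. The authors deposited estimated counts per gene, made with salmon on GRCh38.p13 (Ensembl annotation), summed by symbol and filtered with filterByExpr; 88.8% of the values are not whole. The authors' tables of comparisons (fold changes and p-values) and their corrected expression table were not used. Strand use in the counting is not given in the sources used here.

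Counts were rounded and analysed with edgeR 4.0.16 (quasi-likelihood test, TMM) in R 4.3.3. filterByExpr removed 0 further genes. Surrogate variables came from sva 3.50.0 on log2 CPM (prior count 2; num.sv, seed 1, held between 1 and 3): 1 in the group fit and 2 in the dose trend (fold change per 20 nM). All 9 libraries entered each fit, with p-values adjusted by Benjamini-Hochberg over 14943 genes and called under 0.05. SE is the log2 fold change over the square root of F. CPM are not corrected for surrogate variables. Positions, transcript lengths, GC content and 3′ UTRs came from GENCODE 44, with 14105 genes matched by identifier, 768 by symbol (MGAT4B, listed as ENSG00000284501, among them) and 70 not matched. Python 3.11.15, pandas 2.3.3 and matplotlib 3.10.9 were used, with DESeq2 1.42.0 as an alternative. The fits were also run on simulated independent counts. These held no pairing, outlying library or effect of GC content, so that run cannot test how the fits handle those.

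Counts of no pair of libraries in a group agreed within sampling noise (chi-square per degree of freedom 4.68 to 46.4), so none was counted as a repeat. Replicate numbers stand in the sample titles. Deviations of same-numbered libraries from their group means correlated at 0.142 to 0.185 between Ctrl. and 10 nM and at 0.107 to 0.116 between Ctrl. and 20 nM. Between 10 nM and 20 nM they correlated at 0.0288 to 0.176. These r are small, but in every comparison the same-numbered library of the second group gave a higher r than its other libraries. The main fits held no term for the replicate number, so their adjusted p do not account for such pairs. The replicate number entered only as a block among the alternatives. The members and gene lists were chosen with earlier results of these data known. Named genes were all 10 members, up to 3 higher and 3 lower genes per pathway list by smallest adjusted p of the dose trend (or the smallest p where none passed), genes within 20 kb of MGAT4B, and the 5 genes most correlated with it. EDEM3, B4GALT4, the cell markers and the description of GC content and transcript length were added after their values were seen. Protein identity within the MGAT4 pair was not analysed here. One marker is not reported here.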

Additional observations from a re-analysis of the deposited data

How the results depend on the processing

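Each count was recomputed under 16 alternatives: other scalings, a minimum of 1 CPM, DESeq2, 0 or 1 more surrogate variables, the replicate number as a block, and each of the 9 libraries left out. At 20 nM the number of branching genes called (3) was 1 with 0 surrogate variables and 0 to 3 when a library was left out (0 without 20 nM replicate 2; 1 without Ctrl. replicate 1, Ctrl. replicate 3 or 20 nM replicate 1). In the dose trend (2) it was 1 with 0 surrogate variables and 1 to 3 with a library left out, 1 without Ctrl. replicate 1 or 3. It stayed at 0 at 10 nM and between the doses. For the other N-glycan genes, DESeq2 gave 1 at 10 nM (0 in the main analysis, and 0 to 0 with a library left out). With 0 surrogate variables they numbered 5 at 20 nM (13), 1 between the doses (4) and 6 in the dose trend (16), and the replicate block gave 1 between the doses. Leaving out a library gave 7 to 15 at 20 nM, 1 to 4 between the doses and 10 to 25 in the dose trend (7 without 20 nM replicate 1, 20 nM replicate 2 or Ctrl. replicate 3, 25 without 20 nM replicate 1, 10 without 20 nM replicate 2). Over all genes, 10 nM gave 218 with DESeq2, 5 with 0 surrogate variables, 3 with the replicate block and 34 to 160 with a library left out (97). At 20 nM it was 954 with 0 surrogate variables and 1074 as the lowest with a library left out (2074). Between the doses it was 67, 124 with the block, and 111 as the lowest (417). In the dose trend it was 1236 with 0 surrogate variables and 1668 to 3970 with a library left out (2620).

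Of 1899 single-gene values under alternatives, 1749 kept their call, 132 lost it, 17 gained it and 1 reversed: SLC35A3 in the dose trend (0.31) went to -0.07463 without 20 nM replicate 1, and with one library left out it otherwise reached up to 0.382. The replicate block changed no call of the named genes beyond those given with each gene, and the cause of these changes was not tested. Other scalings changed the sign of 1 of 80 values of the branching genes, and none moved the median of all genes by as much as 0.1. The 4 members with a 7-mer or 8-mer match were also 4 with the longest 3′ UTR of each gene. Members had 151 counts or more in each library, so depth limited mainly MGAT4C and LTC4S.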
